A study of Homo sapiens with 24 samples.

Results

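The comparison set A2780 cells that carry Rab25 against A2780 cells that carry pcDNA while both were exposed to EGF, IGF or TGF beta. A2780 is a human ovarian cancer cell line. Its members were the 12 arrays titled as treated with 1 of those 3 growth factors, out of 24 arrays in the series: 6 of Rab25 cells and 6 of pcDNA cells. They form 6 pairs, each of 1 Rab25 and 1 pcDNA array of the same growth factor and the same experiment (1 or 2). Per the labels, the lines were grown in RPMI 1640 with 5% serum and starved of serum for 8 h. EGF at 10 ng/ml, IGF at 10 ng/ml or TGF beta at 5 ng/ml was then added. The labels disagree on the exposure. The sample source names give 24 h for every treated array, and the treatment protocol gives 24 h for experiment 2 but 8 h for experiment 1. The 8 serum-starved arrays, 2 per line and experiment, served as a second set of the same lines without a growth factor. The 4 serum-treated arrays were left out of the main fits. Each line is 1 transfected line, so the difference between the lines cannot be told apart from other differences between these particular lines. Nothing in the labels says whether the experiments were separate cultures from separate thaws, so p-values measure the spread between these 6 pairs, which may be technical.

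Rab25 is a small GTPase of the Rab11 family, which acts on recycling endosomes and returns internalised receptors and integrins to the plasma membrane. EGF and IGF act through receptor tyrosine kinases that feed the ERK and PI3K pathways, and TGF beta acts through receptor serine/threonine kinases that phosphorylate SMAD proteins. EGR1, COL5A1 and RAB25 itself served as markers of the comparison: EGR1 is an immediate-early transcription factor induced through ERK and SRF, and COL5A1 encodes a chain of fibrillar collagen V.

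Levels are log2 array signals, and a difference is the Rab25 level minus the pcDNA level on that log2 scale, so that 1 is a doubling. Each of 11940 genes was represented by its brightest probe set. Differences were tested with limma over the 6 pairs, with Benjamini-Hochberg adjustment over all genes, and a gene was called at an adjusted p below 0.05. The median level of an array over all genes lay between 7.99 and 8.18 on the 12 arrays, the lowest being that of Rab25 cells with TGF beta in experiment 1. The number of arrays, not a count of reads, limits the precision here.

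The transfected gene was first examined in every array. RAB25 (chr1:156061160-156070504, GRCh38.p14) had levels of 5.32 and 5.55 with EGF, 5.05 and 5.02 with IGF, and 5.41 and 5.60 with TGF beta in pcDNA cells, in experiments 1 and 2. In Rab25 cells the levels were 8.50 and 8.25, 8.72 and 8.80, and 8.89 and 8.96. The groups did not overlap, and the pcDNA values lay near the 10th percentile of all genes' mean signals (5.28). RAB25 was higher by 3.36 (SE 0.126, n = 6 pairs, limma adjusted p = 2.05e-06), a 10.3-fold difference, and no label was contradicted. In starved cells the difference was 3.63.

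With growth factors, 2378 of 11940 genes (19.9%) differed between the lines by limma. Of these, 926 (7.76%) were higher in Rab25 cells and 1452 (12.2%) were lower. The split depended on scaling: quantile normalization gave 1176 higher and 1310 lower, and median centring gave 1424 higher and 1004 lower. Without the pair block the count was 703. Most differences were small: 58 called genes reached a 2-fold difference, 23 higher and 35 lower. Of the called genes, 2162 had 1 sign in all 6 pairs.

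**Figure D1:**
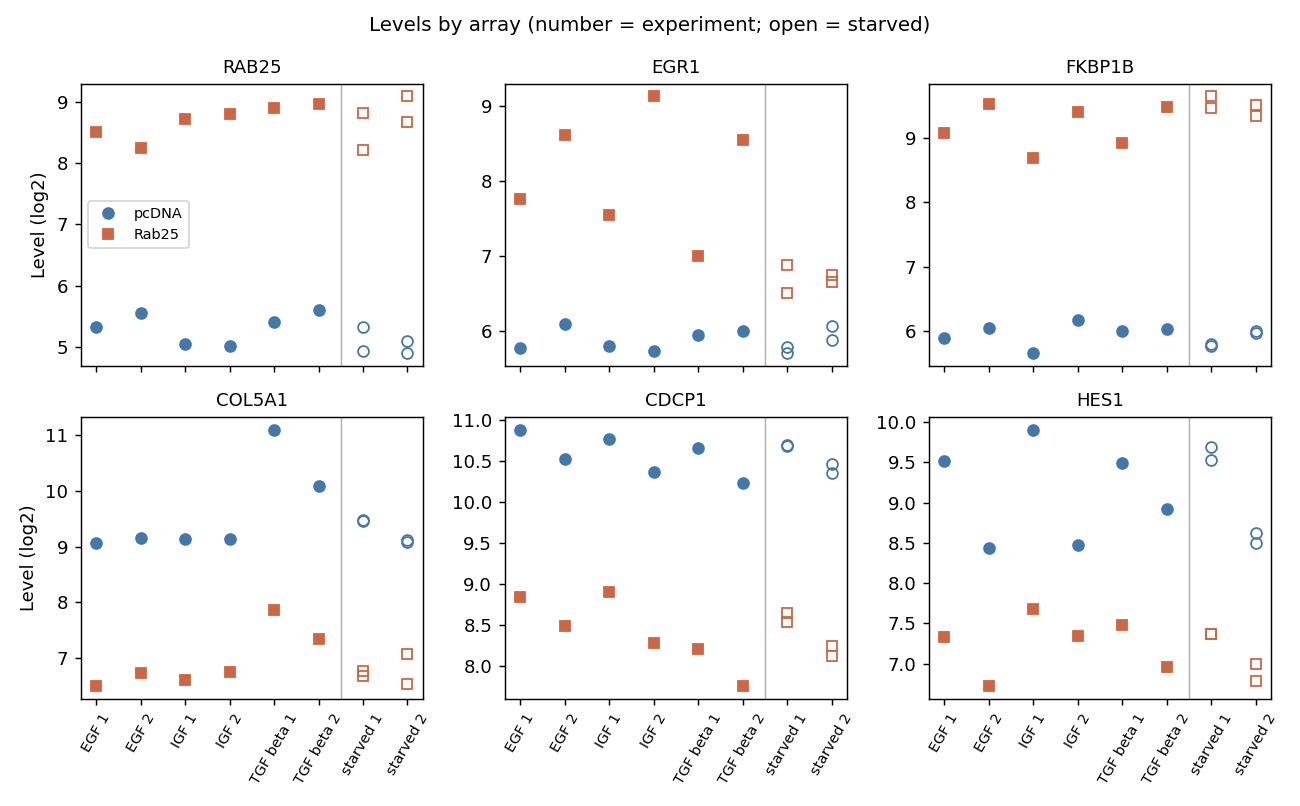
Log2 level of 6 genes on each array (vertical axis) by growth factor and experiment (horizontal axis), for pcDNA cells (circles) and Rab25 cells (squares), with the starved arrays as open symbols. With growth factors the lines do not overlap for any of the 6 genes, and EGR1 in Rab25 cells ranges from 6.995 to 9.13 while pcDNA cells stay between 5.73 and 6.10.

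EGR1 was dim in pcDNA cells and raised in Rab25 cells. Its pcDNA levels were 5.78 and 6.10 with EGF, 5.80 and 5.73 with IGF, and 5.94 and 6.00 with TGF beta. They lay near the 25th percentile of all genes' mean signals (5.71). A response of EGR1 to the growth factors in pcDNA cells could thus be missed, and the fold difference may be understated. The Rab25 levels were 7.76 and 8.62, 7.55 and 9.13, and 6.995 and 8.56. Every Rab25 array was above every pcDNA array, and within each growth factor the array of experiment 2 was the higher of the Rab25 pair. The difference was 2.21 (SE 0.248, n = 6 pairs, limma adjusted p = 0.000389), or 4.63-fold. Starved Rab25 cells had 6.50 to 6.88 against 5.71 to 6.07 in starved pcDNA cells, a difference of 0.84. The growth-factor difference exceeded the starved one by 1.38 (SE 0.474), which did not pass the threshold (unadjusted p = 0.0159, limma adjusted p = 1.0, 11940 genes). By experiment, the EGR1 difference was 1.60 in the first and 2.83 in the second, a change that did not pass either (1.23, SE 0.295, limma adjusted p = 0.0968). A second EGR1 probe set, dim at a mean of 5.72, had a difference of 0.13.

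The EGR1 promoter is shown for its CArG boxes, the sequence bound by SRF. The 160 bases before the RefSeq start (chr5:138465319-138465478, plus strand, GRCh38.p14) read, with matches to the CArG box in capitals:
EGR1: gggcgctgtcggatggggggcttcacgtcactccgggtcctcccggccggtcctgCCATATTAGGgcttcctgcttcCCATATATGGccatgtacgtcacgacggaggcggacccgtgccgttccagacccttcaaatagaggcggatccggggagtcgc
A CArG box was found in 1.24% of the 9593 tested genes with a RefSeq promoter (250 bases before to 50 after the start, both strands), in 1.93% of 777 genes higher in Rab25 cells and in 1.56% of 1152 lower genes. The EGR site GCGNGGGCG occurred in 14.1%, 16.7% and 15.7% of the same sets. The AP-1 site TGANTCA occurred in 5.48%, 5.02% and 3.73%, and the short SMAD site CAGACA in 13.6%, 11.7% and 11.8%. The SMAD palindrome GTCTAGAC occurred in 0.156%, 0.257% and 0.0868%. These shares are descriptions of these windows, with no test.

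Of 26 immediate-early genes measured, 4 rose (15.4%, against 7.76% of all genes) and 3 fell (11.5%, against 12.2%), with a list median of -0.01 and the same median over all genes. Besides EGR1, IER5 (0.42, SE 0.06), NR4A3 (0.28, SE 0.07) and FOSL1, an AP-1 subunit (0.27, SE 0.06), rose. KLF4, a zinc-finger factor (-0.84, SE 0.07), JUND (-0.41, SE 0.06) and IER3 (-0.21, SE 0.05) fell. Over the 6 pairs, the genes whose line difference most resembled that of EGR1, among 819 genes with an SD of at least 0.3, were MT1L, USP46, PAN2, HSPA6, SGSH and ZSCAN9. Their Pearson r over the 6 pairs was 0.966 to 0.986, the values that chose them. Their own differences stayed between -0.83 and 0.55, against 1.05 to 3.40 for EGR1.

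COL5A1 (chr9:134641803-134844843, GRCh38.p14) was lower in every Rab25 array. Its pcDNA levels were 9.07 and 9.15 with EGF, 9.13 in both experiments with IGF, and 11.10 and 10.08 with TGF beta. In Rab25 cells they were 6.49 and 6.73, 6.61 and 6.74, and 7.85 and 7.35. In both lines the TGF beta arrays were the highest, and the highest Rab25 array lay below the lowest pcDNA array. The difference was -2.65 (SE 0.105, n = 6 pairs, limma adjusted p = 2.05e-06), a 6.27-fold lower level. It was -2.49 with EGF, -2.46 with IGF and -2.99 with TGF beta, and -2.52 in starved cells. Its other 2 probe sets gave -1.79 and -1.71.

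Among the 14 largest rises, FKBP1B, an FK506-binding protein of calcium release channels, was at 5.67 to 6.17 (median 6.02) in pcDNA cells. It was at 8.69 to 9.52 (median 9.24) in Rab25 cells, a difference of 3.21 (SE 0.0772). Its other 3 probe sets, with means of at most 5.74, gave 0.05 to 0.50. CCND2, encoding cyclin D2, rose from 7.02 ± 0.34 to 9.01 ± 0.49 (SD, n = 6 each), by 1.99 (SE 0.0807). Its other probe sets gave -0.04 and 0.30, and the call did not hold when the median over probe sets was taken. DSP, the desmosomal plaque protein desmoplakin, rose by 1.58 (SE 0.0632), from 8.40 to 9.26 in pcDNA cells to 9.76 to 10.87 in Rab25 cells. AJAP1, a protein associated with adherens junctions, rose by 1.42 (SE 0.0522), and its other 3 probe sets gave 1.02 to 1.45. NMU, a secreted neuropeptide, rose by 1.43 (SE 0.0788).

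CPT1A, which admits fatty acids to mitochondria, rose by 1.34 (SE 0.0799) and PLTP, the phospholipid transfer protein, by 1.28 (SE 0.103). The other 3 CPT1A probe sets gave -0.07 to 0.10, and its call too did not hold for the median over probe sets. MSLN, the ovarian cancer surface protein mesothelin, rose by 1.27 (SE 0.0724), from a median of 6.30 to 7.43. CLIC3, which is known to act with Rab25 in recycling from late endosomes, rose by 1.24 (SE 0.110), although its line groups overlapped (5.36 to 6.83 against 6.12 to 8.19). NMNAT2, an enzyme of NAD synthesis, rose by 1.30 (SE 0.208) with overlapping groups. Both NMNAT2 and CLIC3 missed the threshold without the pair block. GSTT1, a glutathione transferase, and GPR4, a proton-sensing receptor, rose by 1.22 and 1.21.

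The falls were led by PNMA2, a neuronal antigen, at 8.23 to 8.65 in pcDNA cells and 5.36 to 6.15 in Rab25 cells, a difference of -2.79 (SE 0.111). LXN, a carboxypeptidase inhibitor, differed by -2.19 (SE 0.244), from 6.47 to 8.33 in pcDNA cells to 5.08 to 5.41 in Rab25 cells. The LXN difference was -1.53 in experiment 1 and -2.85 in experiment 2, a change that passed the test (limma adjusted p = 0.0296). CDCP1, a transmembrane glycoprotein phosphorylated by SRC-family kinases, fell by 2.16 (SE 0.0848), from a median of 10.59 to 8.38. LRIG1, which promotes the degradation of EGF receptors, fell by 1.34 (SE 0.132). HES1, a Notch-induced repressor, differed by -1.87 (SE 0.130), and its other 2 probe sets gave -1.40 and 0.04.

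Among the other largest falls, TNFSF15, a cytokine of the TNF family, differed by -2.07 (SE 0.209), SPP1, which encodes osteopontin, by -1.58 (SE 0.0803) and CCL3, a chemokine, by -1.36 (SE 0.099). For each of these 3 the line groups overlapped. TGFB2, a TGF beta ligand, differed by -1.54 (SE 0.133), with its other 3 probe sets at -1.21 to -0.01. BAMBI, a pseudoreceptor that dampens TGF beta signals, differed by -1.36 (SE 0.230). NUPR1, a stress-induced nuclear protein, differed by -1.53 (SE 0.127), SLC12A8 by -1.72 (SE 0.0604) and SEL1L3 by -1.56 (SE 0.151). TGFB2, BAMBI, CCL3 and SEL1L3 missed the threshold without the pair block.

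**Figure D2:**
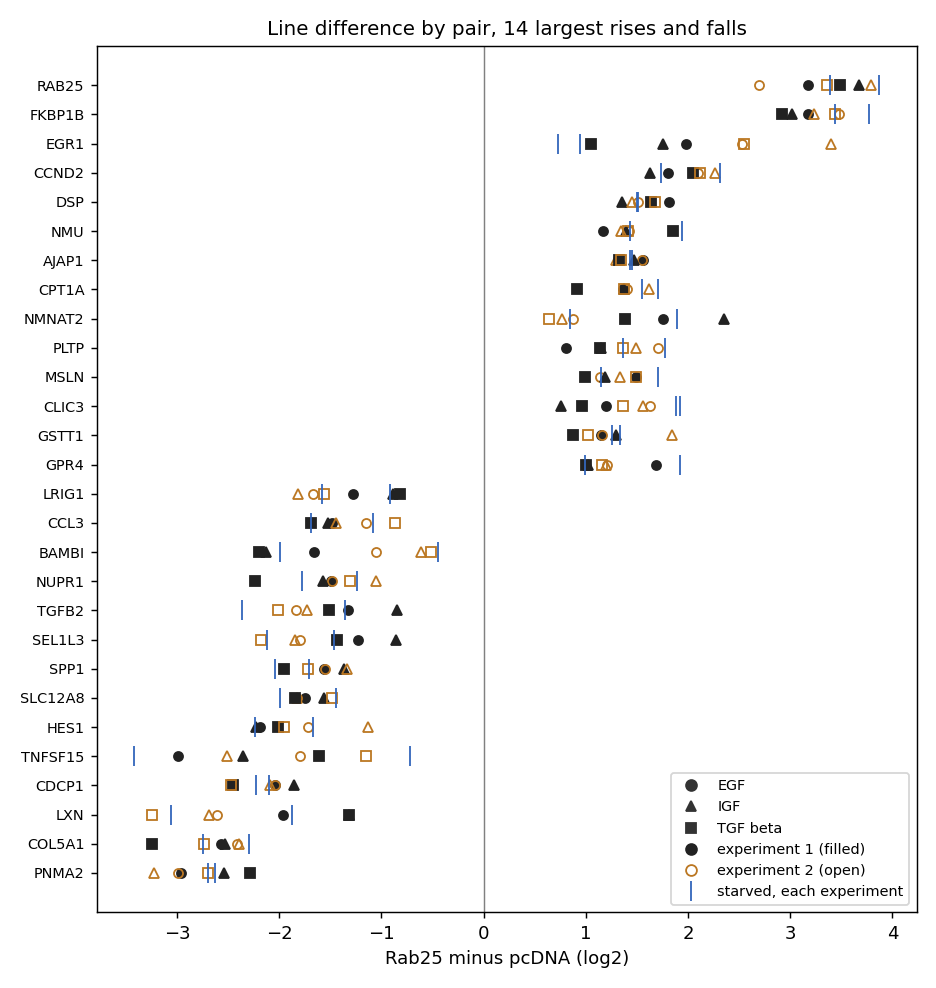
Rab25 minus pcDNA on the log2 scale (horizontal axis) for the 14 largest rises and 14 largest falls, with 1 symbol per pair and a tick for each starved experiment. The genes were chosen for 1 sign in all 6 pairs, and the starved ticks, which did not enter the choice, lie on the same side of 0 for all 28.

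The same lines without a growth factor differed in the same direction. Of the 2378 called genes, 2219 (93.3%) had the called sign in both starved experiments, against 46.6% of the 9562 genes not called. All 58 genes with a called difference of at least 2-fold had that sign in both starved experiments. No gene of 11940 (0%) passed the limma test of the growth-factor difference minus the starved difference, with 524 genes at an unadjusted p below 0.05. In a fit to all 24 arrays, 1 gene passed: EFNB3, which encodes the transmembrane ligand ephrin-B3, at -0.60 (SE 0.0858, limma adjusted p = 0.0282). It was named after its value was seen, and in the 16-value fit it had the same difference with SE 0.0971 and an adjusted p of 1.0. A p that misses the threshold does not show that the differences were alike.

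Taken 1 growth factor at a time, with 2 pairs each, limma called 211 genes (1.77%) with EGF, 241 (2.02%) with IGF and 266 (2.23%) with TGF beta. Without the pair block these counts were 11, 12 and 10. They rest on both pairs of a factor: leaving out 1 pair of the factor itself left 3 or 11 genes with EGF, 7 in either case with IGF, and 14 or 27 with TGF beta. RAB25 differed by 2.94, 3.73 and 3.42 under the 3 factors. Among called genes not described above, ZNF804A (1.31) and ADD2, an adducin of the membrane skeleton (1.23), were the largest rises with EGF, and L1CAM, a cell adhesion molecule (-1.42), and SCG5 (-1.32) the largest falls. With IGF these were TAGLN, an actin-binding protein of smooth muscle (1.62), MYO5C (1.24), THBS1, which encodes thrombospondin 1 (-1.52), and KLF9 (-1.45). With TGF beta they were LBH (1.35), PRDX2, a peroxiredoxin (1.13), VIPR1 (-1.56) and IL13RA2, a receptor chain for IL-13 (-1.42). Over the 3 factors together, the other probe set of L1CAM gave -0.22 and the other 3 of PRDX2 gave -0.07 to 0.51. Those of ADD2 gave 0.98 and 0.13, that of MYO5C 0.07, those of KLF9 -0.65 and 0.18, and those of THBS1 -0.95 to 0.03.

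Whether the line difference depended on the growth factor was tested directly with a moderated F statistic over the 3 factors. No gene of 11940 (0%) passed, and 314 had an unadjusted p below 0.05. The 5 genes of lowest p are named here as the strongest candidates and none passed, each with a limma adjusted p of 1.0. CXCR4, a chemokine receptor, differed by 0.40 and 0.51 with EGF, by -0.10 and -0.12 with IGF, and by 1.05 and 1.03 with TGF beta, in experiments 1 and 2. The differences of the 2 experiments nearly coincided within each factor. Its levels moved much more between conditions than between lines: 6.70 to 9.93 in pcDNA cells and 6.58 to 10.98 in Rab25 cells, lowest with IGF in experiment 2 and highest with TGF beta in experiment 1 in both. In starved cells its difference was 1.23. ERCC4, a DNA repair nuclease subunit, and HPX, which encodes hemopexin, were above 0 with TGF beta in both experiments (0.42 and 0.40, and 0.68 and 0.45). CUEDC1 was lowest with TGF beta (-1.11, against -0.49 with EGF and -0.35 with IGF). RGS2, a regulator of G-protein signalling, was at 0.33 with TGF beta against 1.00 with EGF and 0.92 with IGF.

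**Figure D3:**
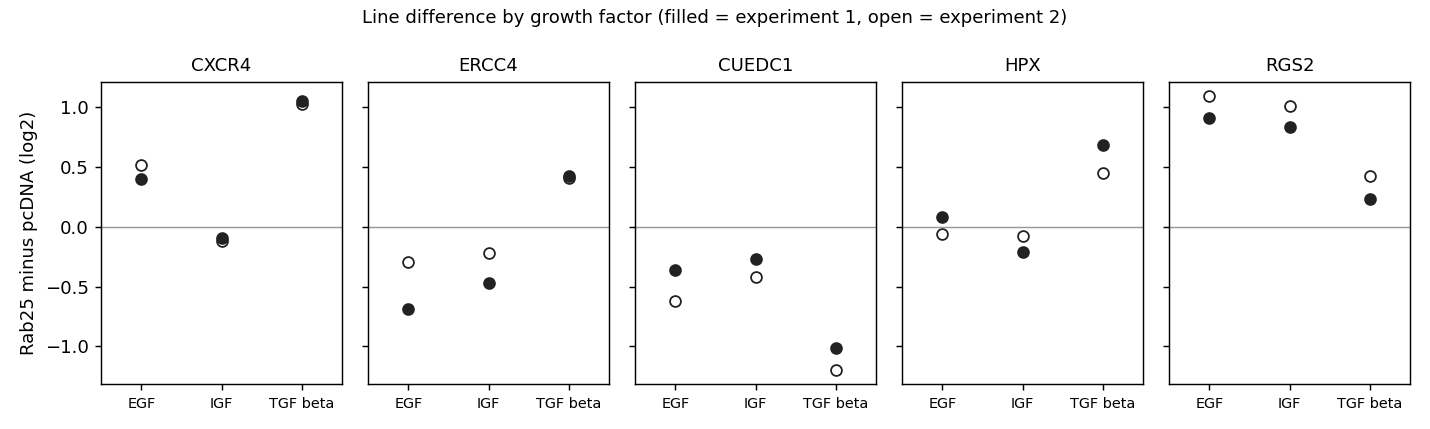
Rab25 minus pcDNA on the log2 scale (vertical axis) for the 5 genes of lowest F-test p, by growth factor (horizontal axis), filled for experiment 1 and open for experiment 2. The CXCR4 points of each factor nearly coincide, while none of the 5 genes passed after adjustment over 11940 genes.

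The line difference varied between the 2 experiments. Line differences of pairs from the same experiment correlated at r = 0.586 to 0.715 across genes (6 combinations), and those from different experiments at 0.445 to 0.539 (9 combinations). Genes are not independent replicates, and these correlations are descriptions. The difference in experiment 2 minus that in experiment 1 was tested with the growth-factor pairs of an experiment as its replicates. The p of this test thus measures the spread between those pairs, not between repeats of an experiment. It passed for 225 genes (1.88%), 57 higher (0.477%) and 168 lower (1.41%). Without the pair block the count was 157. It was 76, 89 and 85 without the EGF, IGF or TGF beta pair of experiment 2, 127 without the EGF or the IGF pair of experiment 1, and 165 without the TGF beta pair of experiment 1. For 139 of the 225 the difference was above 0 in experiment 1 and below 0 in experiment 2. In the joint fit to both experiments, limma called 2164 genes (18.1%) for experiment 1, 930 higher (7.79%) and 1234 lower (10.3%). For experiment 2 the joint fit called 1691 genes (14.2%), 699 higher (5.85%) and 992 lower (8.31%). Fits to each experiment alone reversed this order, with 1175 genes called in experiment 1 and 1786 in experiment 2. Which experiment had more line differences thus depended on the fit.

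Genes of G2 phase and mitosis changed together. All 25 measured members of that list had a lower line difference in experiment 2 than in experiment 1. All 25 were called, against 1.41% of all genes called lower. The list median was -0.83, against a median of 0.02 over all genes. In experiment 1 all 25 were higher in Rab25 cells (median 0.61), and in experiment 2 none was higher and 12 were lower (median -0.24). Over both experiments together none of the 25 was called, and 3 were called higher with median centring. Leaving out any 1 pair kept 20 to 23 of the 25 calls. The list was chosen with earlier results of these data known.

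The levels show which arrays moved. The mean level of the 25 genes in pcDNA cells was 10.4, 10.4 and 10.6 with EGF, IGF and TGF beta in experiment 1, and 11.7, 11.6 and 11.6 in experiment 2. In Rab25 cells it ranged from 10.997 to 11.235 in experiment 1 and was 11.4 in experiment 2 with each factor. The pcDNA arrays of experiment 1 were thus the lowest of the 4 sets, and those of experiment 2 the highest. Starved cells had the same order: 10.5 and 10.7 in pcDNA cells of experiment 1, 11.1 in both Rab25 arrays of experiment 1, 11.5 in both Rab25 arrays of experiment 2, and 11.7 in both pcDNA arrays of experiment 2. All 25 genes were higher in starved Rab25 cells of experiment 1 (median 0.51) and 21 were lower in those of experiment 2 (median -0.23). The share of cells in mitosis and the RNA per mitotic cell cannot be told apart in such bulk samples. Cell density and growth state were not among the labels, and their part in the result was not tested.

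**Figure D4:**
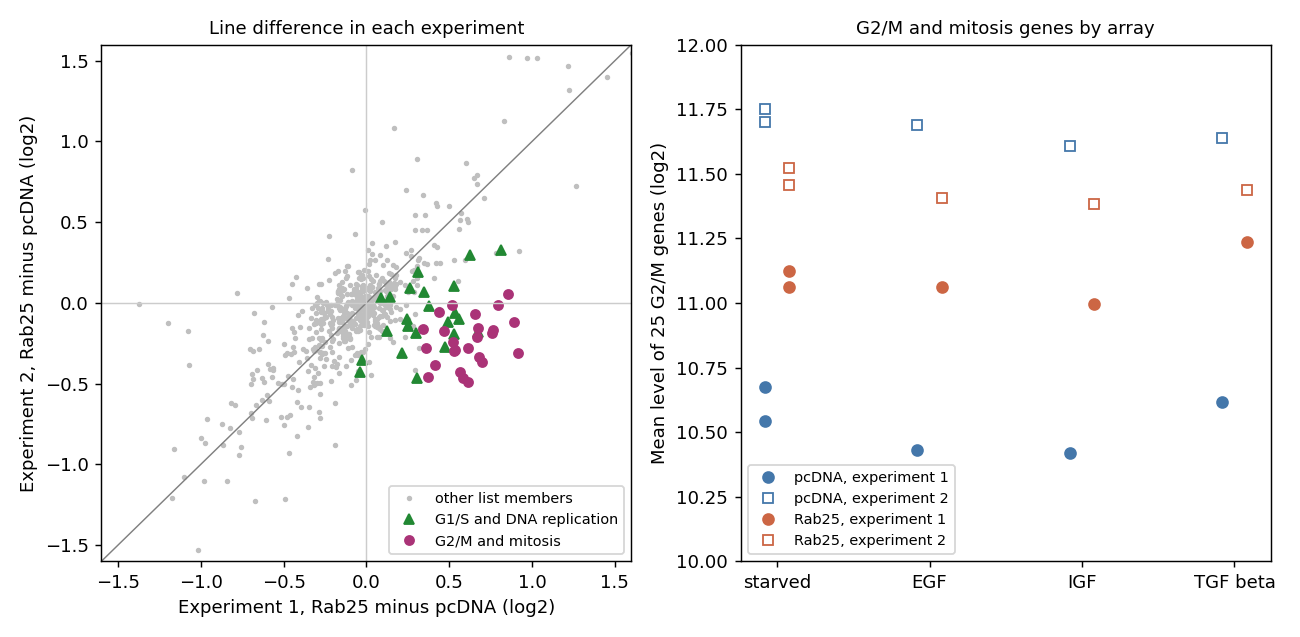
Left, Rab25 minus pcDNA (log2) in experiment 1 (horizontal axis) and experiment 2 (vertical axis) for 649 list genes, 12 of which lie beyond the panel limit of 1.6; the line marks equal differences. Right, mean log2 level of the 25 G2/M genes by array (vertical axis) and condition (horizontal axis); pcDNA arrays of experiment 1 are lowest and those of experiment 2 highest in every condition.

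The 5 genes of lowest p for this change are all of mitosis or proliferation, and each had a limma adjusted p of 0.00434. CENPE, a kinetochore motor, was at 8.80 to 9.09 in pcDNA cells of experiment 1 and 10.19 to 10.37 in those of experiment 2, against 9.66 to 10.01 in all Rab25 arrays. Its line difference was 0.92 in experiment 1 and -0.31 in experiment 2, a change of -1.22 (SE 0.0806). MKI67, which encodes the proliferation antigen Ki-67, was at 10.20 to 10.34 and 11.58 to 11.66 in pcDNA cells and at 11.16 to 11.59 in Rab25 cells. Its change was -1.02 (SE 0.0739), and its other 3 probe sets gave -1.11 to -0.86. ASPM, a spindle-pole protein, changed by -1.07 (SE 0.0819), yet was higher in Rab25 cells in all 6 pairs (1.37 in experiment 1, 0.29 in experiment 2). CDC25C, the phosphatase that activates CDK1, changed by -1.04 (SE 0.082), a call that did not hold for the median over probe sets. NDC80, a kinetochore protein, changed by -0.97 (SE 0.0779).

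Within the mitosis list, PLK1, a mitotic kinase, changed by -1.06, the checkpoint kinase gene TTK by -1.11 and TOP2A, topoisomerase II alpha, by -1.01. The smallest changes were those of PTTG1, which encodes securin (-0.49), and BIRC5, which encodes survivin (-0.50). Of 23 G1/S and replication genes, 7 were called lower (30.4%, against 1.41% of all genes) and none higher, with a list median of -0.40. These were GINS1, CDC6, RRM2, RFC3, RRM1, MCM6 and TYMS, whose other 2 probe sets gave changes of -0.06 and 0.01. The count was 0 without the IGF pair of experiment 2. It was 1 without the EGF or the TGF beta pair of experiment 2, 4 without the EGF pair of experiment 1 and 3 without the IGF pair of experiment 1. Over both experiments, 4 replication genes (17.4%, against 7.76% of all genes) were higher in Rab25 cells: MCM6 (0.57), FEN1 (0.46), POLA1 (0.32) and PCNA (0.25). CDKN1A, the p21 inhibitor of cyclin-dependent kinases, had the opposite change (0.49, SE 0.0862, limma adjusted p = 0.0339), from -0.46 in experiment 1 to 0.03 in experiment 2.

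Promoters of mitotic genes are known for a CHR element, bound by the DREAM and MuvB complexes, often with CCAAT boxes bound by NF-Y. Both motifs were looked for after the gene lists' values were seen. The 160 bases before the start of 3 such genes are shown because they hold both, with the CHR letters TTTGAA and the CCAAT letters in capitals on either strand; MKI67 is at chr10:128126424-128126583 (minus strand), ASPM at chr1:197146670-197146829 (minus strand) and PLK1 at chr16:23678729-23678888 (plus strand), all in GRCh38.p14 from RefSeq:
MKI67: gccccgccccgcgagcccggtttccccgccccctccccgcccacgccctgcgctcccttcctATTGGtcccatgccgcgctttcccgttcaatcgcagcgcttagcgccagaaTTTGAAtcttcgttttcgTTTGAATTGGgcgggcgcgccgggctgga
ASPM: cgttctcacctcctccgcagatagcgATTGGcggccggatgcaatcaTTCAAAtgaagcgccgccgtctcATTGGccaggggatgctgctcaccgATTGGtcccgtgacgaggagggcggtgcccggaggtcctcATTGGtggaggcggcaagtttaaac
PLK1: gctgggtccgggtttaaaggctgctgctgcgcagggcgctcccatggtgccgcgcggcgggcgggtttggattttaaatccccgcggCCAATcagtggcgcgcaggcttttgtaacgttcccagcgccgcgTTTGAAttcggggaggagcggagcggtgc
The CHR letters occurred in 43.4% of the 143 promoters of genes whose line difference was lower in experiment 2, in 12 of the 20 promoters matched from the mitosis list, and in 10.9% of all 9593. The CCAAT letters occurred in 62.9%, 80.0% and 37.5%. Among the 35 promoters of genes whose line difference was higher in experiment 2, the shares were 5.71% and 31.4%. In MKI67 the second CHR match overlaps a CCAAT match on the other strand. Other mitotic genes were looked at in the same way and are not shown. TOP2A also held both motifs, NDC80 only the CHR letters and CCNB1 only the CCAAT letters. CENPE and CDC25C, among the genes of lowest p between experiments, held neither. A match is a description of the letters, not evidence of binding, and no test was made.

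Outside the cell cycle, genes whose line difference was higher in experiment 2 included IGFBP1, an IGF-binding protein (1.36, from -1.37 to -0.01), BAMBI (1.27, from -1.996 to -0.73) and ESRP1, an epithelial splicing regulator (1.07, from -1.20 to -0.13). BMP2, a bone morphogenetic protein, changed by 0.91 (from -0.09 to 0.82), PPARG, a nuclear receptor of fat metabolism, by 0.90 (from -1.08 to -0.18) and CXCL8, a chemokine, by 0.59 (from -0.01 to 0.58). Of the 225 called genes, 221 (98.2%) had the same sign of change in starved arrays, against 63.2% of the other 11715. Of these 225, 47 (20.9%) were also called for the line difference itself, which is 1.98% of the 2378.

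Genes of the amino acid response were often lower in Rab25 cells. Of 33 measured members of the ATF4 and amino acid response list, none rose and 21 fell (63.6%, against 12.2% of all genes), with a median of -0.24 against -0.01 over all genes. ATF4 is a transcription factor of the integrated stress response that drives amino acid synthesis and import. The falls included CBS (-0.82, SE 0.09) and CTH (-0.65, SE 0.09), the enzymes of transsulfuration, SLC7A11, the cystine transporter (-0.51, SE 0.11), TRIB3 (-0.42, SE 0.11), DDIT3 (-0.39, SE 0.09) and PHGDH of serine synthesis (-0.35, SE 0.08). Without the TGF beta pair of experiment 1 the count was 13, and without the pair block it was 5. The list's median difference was -0.22 with EGF, -0.15 with IGF, -0.43 with TGF beta and -0.40 in starved cells.

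Of 21 cholesterol and fatty acid synthesis genes, 2 rose and 13 fell (61.9%, median -0.26). SCD, the stearoyl-CoA desaturase, fell by 0.67 (SE 0.04), INSIG1 by 0.46 (SE 0.05), and HMGCS1, of sterol synthesis, by 0.32 (SE 0.05), although its other 2 probe sets gave 0.03 and 0.04. The transcription factor genes SREBF1 (-0.40, SE 0.06) and SREBF2 (-0.29, SE 0.06) also fell. The desaturase genes FADS1 (0.40, SE 0.06) and FADS2 (0.56, SE 0.05) rose. Of 21 heat shock chaperones, 2 rose and 10 fell (47.6%, median -0.15), among them DNAJB6 (-0.87, SE 0.05), HSPA1B (-0.72, SE 0.07) and HSPA1A (-0.55, SE 0.06), a near-identical pair whose probe sets may share signal. Of 21 unfolded protein response genes, none rose and 7 fell (33.3%, median -0.16), led by DNAJB9 (-0.59, SE 0.07). The falls in these 3 lists numbered 5, 3 and 0 without the pair block, and the 2 chaperone rises became 1 without the EGF or the IGF pair of experiment 1. Hypoxia and glycolysis genes had 2 rises (6.45%) and 9 falls (29.0%) of 31, with the glucose transporter gene SLC2A3 at -1.04 (SE 0.05) and NDRG1 at -0.92 (SE 0.07).

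**Figure D5:**
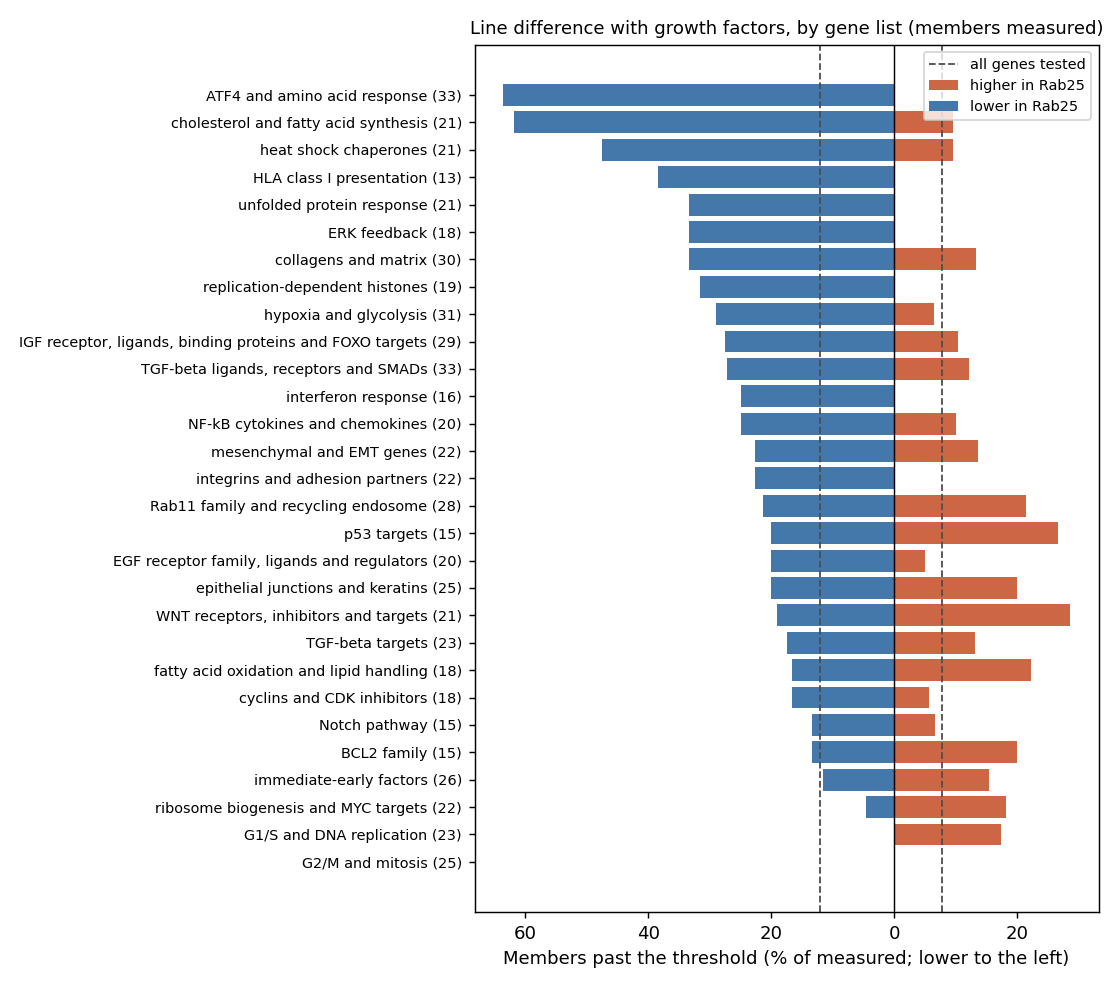
Share of each list's measured members that passed the threshold (horizontal axis, percent), lower in Rab25 cells to the left and higher to the right, for the 29 lists with at least 13 measured members. Dashed lines mark the shares over all genes tested, 7.76% higher and 12.2% lower, and the lower shares of the ATF4 and cholesterol lists are 63.6% and 61.9%.

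The growth factor pathways themselves were examined next, with 7.76% of all genes higher and 12.2% lower for comparison. Among the receptors, IGF1R fell by 0.60 (SE 0.07), although its other probe sets gave -0.18 and -0.07, and ERBB2 rose by 0.30 (SE 0.04). Among the ligands, HBEGF, which binds the EGF receptor, fell by 0.81 (SE 0.07), TGFB2 by 1.54, and TGFB1 rose by 0.39 (SE 0.05). The other probe set of TGFB1, at a mean of 5.53, gave -0.10. The EGF receptor list had 1 rise (5.00%) and 4 falls (20%) of 20. The IGF and FOXO list had 3 rises (10.3%) and 8 falls (27.6%) of 29, the latter including KLF9 (-1.27, SE 0.11) and PIK3R1, the p85 regulatory subunit gene (-0.62, SE 0.09). Of 18 ERK feedback genes, none rose and 6 fell (33.3%), among them ETV5 (-0.48, SE 0.04), SPRY4 (-0.48, SE 0.06) and DUSP5 (-0.31, SE 0.05). None of these 6 passed without the pair block. The other probe set of SPRY4, at a mean of 5.30, gave -0.07. TGF beta ligands, receptors and SMADs had 4 rises (12.1%) and 9 falls (27.3%) of 33, including the inhibitory SMAD7 (-0.52, SE 0.06) and the SMAD corepressor SKI (-0.61, SE 0.10), whose other probe set gave -0.07. Median centring gave 6 rises and 6 falls there. The TGF beta target list had 3 rises (13%) and 4 falls (17.4%) of 23, among them TAGLN (1.19, SE 0.16) and NEDD9 (-0.85, SE 0.17), whose other probe set gave -0.35.

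Of 28 Rab11 family and recycling endosome genes, 6 rose and 6 fell (21.4% each, against 7.76% and 12.2% of all genes). The 6 rises count RAB25, the transfected gene itself, whose rise was set by the design. Besides RAB25 and CLIC3, the rises were MYO5C, a myosin motor (0.99, SE 0.13), the EH-domain proteins EHD3 (0.73, SE 0.06) and EHD1 (0.54, SE 0.05), and SNX17 (0.13, SE 0.04). The falls included RAB11FIP1, the Rab coupling protein (-0.46, SE 0.06), and TFRC, the transferrin receptor (-0.27, SE 0.04), whereas RAB11A was at -0.02 (SE 0.0395) and was not called. Of 22 integrin and adhesion genes none rose and 5 fell (22.7%): ITGB3 (-0.52), ITGA2 (-0.49), ITGB5 (-0.48), ITGA5 (-0.28) and ITGAV (-0.27). The other 6 probe sets of ITGB3 gave -0.22 to 0.08. Collagen and matrix genes had 4 rises (13.3%) and 10 falls (33.3%) of 30, with COL1A1 (0.98, SE 0.10), LAMC1 (0.68, SE 0.04), TNC (0.60, SE 0.11) and FN1 (0.51, SE 0.05) as the rises. FN1, which encodes fibronectin, was read from one of 4 bright probe sets, which gave 0.46 to 0.62, whereas its 2 probe sets at mean levels of 9.18 and 8.02 gave 1.82 and 2.11. The other 3 probe sets of COL1A1 gave -0.07 to 0.07. The falls after COL5A1 were led by THBS1 (-1.09, SE 0.15), SERPINE2 (-1.03, SE 0.07) and COL13A1 (-0.97, SE 0.06).

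Of 25 junction and keratin genes 5 rose (20%, against 7.76% of all genes), including the protease inhibitor gene SPINT2 (0.55, SE 0.06), and 5 fell (20%, against 12.2%), including CLDN1, a tight-junction claudin (-0.54, SE 0.09). Of 22 mesenchymal genes 3 rose (13.6%) and 5 fell (22.7%), with the repressor genes ZEB2 (-0.80, SE 0.08) and ZEB1 (-0.35, SE 0.08) lower and ACTA2 (0.50, SE 0.07) higher. The other probe sets of ZEB2 and ACTA2, at means of 4.80 and 5.99, gave -0.03 and 0.01, and those of ZEB1 gave -0.33 and -0.01. Without the pair block none of the 5 epithelial and none of the 5 mesenchymal falls passed. The WNT list had 6 rises (28.6%) and 4 falls (19.0%) of 21, with FZD3 at 0.71 (SE 0.07) and FZD7 at -0.69 (SE 0.08), both WNT receptors. The WNT falls numbered 2 with median centring, and also without either EGF pair or the IGF pair of experiment 1. The Notch list had 1 rise (6.67%) and 2 falls (13.3%) of 15, near the shares of all genes (7.76% and 12.2%). The falls were HES1 and HEY1 (-1.19, SE 0.05), both Notch targets. The rise was RBPJ, the Notch transcription factor (0.30, SE 0.05), with 0.06 at its other probe set, also bright at 12.8. Of 18 cyclin and CDK inhibitor genes, 1 rose (5.56%) and 3 fell (16.7%). CCND2 was the rise, and CDKN1B (-0.58, SE 0.06), CDKN1C (-0.41, SE 0.07) and CDKN2D (-0.30, SE 0.07) were the falls. The other 5 probe sets of CDKN1C, at means of at most 6.13, gave -0.27 to 0.10. That of CDKN2D, at a mean of 5.08, gave 0.08. With median centring 3 rose and 3 fell, and 2 rose without the EGF or the TGF beta pair of experiment 1.

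The remaining lists are given by their counts, to be read against 7.76% higher and 12.2% lower among all genes. Rises and falls numbered 4 and 3 of 15 for p53 targets (26.7% and 20%), 3 and 2 of 15 for the BCL2 family (20% and 13.3%), 4 and 1 of 22 for ribosome biogenesis (18.2% and 4.55%), and 2 and 5 of 20 for NF-kB cytokines (10.0% and 25%). They numbered 0 and 4 of 16 for interferon response genes (25% lower), 0 and 6 of 19 for histones (31.6% lower), 0 and 5 of 13 for HLA class I presentation (38.5% lower), and 4 and 3 of 18 for lipid handling (22.2% and 16.7%). The 5 HLA falls became 1 without the EGF pair of experiment 1, and median centring also left 1. They became 3 without the EGF pair of experiment 2 and 2 without the IGF pair of experiment 1. The 2 NF-kB rises became 0 without the EGF or the TGF beta pair of experiment 2, 1 without the EGF pair of experiment 1 or either IGF pair, and 4 with median centring. The 4 lipid handling rises became 2 without any 1 pair of experiment 2.

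Markers of other cell types were checked in the 12 arrays. The 4 leukocyte markers measured had mean levels of 5.24 to 5.75, near the 25th percentile of genes (5.71), and none was called. None of 7 fibroblast markers was called; LUM was at 4.69, whereas DCN was bright at 12.1 in both lines. Among 5 endothelial markers CDH5 was bright (10.9) and rose by 0.62 (SE 0.11), with PECAM1 at 5.54. It was the only one called (20% higher, against 7.76% of all genes). Of 9 breast epithelium markers only GATA3 was called (-0.58, SE 0.06), or 11.1% lower, near the 12.2% of all genes. Of 4 adipocyte markers only FABP4 was called (-0.53, SE 0.13), or 25% lower. The FABP4 call was lost without the EGF or the IGF pair of experiment 2. The fibroblast list's mean level was 6.57 to 6.76 in pcDNA cells and 6.55 to 6.73 in Rab25 cells. Of 10 epithelial ovarian cancer markers, MSLN, WT1 (0.63, SE 0.18), PAX8 (0.56, SE 0.04) and KRT18 (0.17, SE 0.04) rose and KRT7 fell (-0.33, SE 0.07). The shares were 40% higher and 10% lower, against 7.76% and 12.2% of all genes. The 4 rises became 2 without the EGF or the IGF pair of experiment 1. MUC16 was at 4.95 and VIM at 15.2. RNA quality was read from control probe sets at the ends of actin and GAPDH. The 3' minus 5' actin signal was lower in Rab25 cells in 4 of 6 pairs (mean -0.111, SD 0.135, exact 2-sided sign-flip permutation p = 0.125, adjusted 0.188). The 3' minus middle actin signal was lower in 5 of 6 pairs (mean -0.0770, SD 0.0728, exact p = 0.0938, adjusted 0.188). The 3' minus 5' GAPDH signal was lower in 1 of 6 pairs (mean 0.0223, SD 0.038, exact p = 0.188, adjusted 0.188). The 3' minus middle GAPDH signal was lower in 2 of 6 pairs (mean 0.0184, SD 0.0486, exact sign-flip p = 0.375, adjusted 0.375). The smallest p that 6 pairs can give is 0.0313. Adjustment was made over the actin and GAPDH tests of the same kind of signal, not over all these tests together. The 3' minus 5' actin difference was -0.195 in experiment 1 and -0.0266 in experiment 2. Its part in the differences between experiments was not tested.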

How the data were processed

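RNA of 24 samples was hybridised to Affymetrix human expression arrays. The authors deposited log2 values for 22930 probe sets; the submitters' processing notes name MAS5 and RMA, with no version, and which of them made these values is not given in the sources used here. No further normalization was applied. The 524 control probe sets, 125 with several gene symbols and 2866 without one were left out, and each of 11940 genes was represented by its brightest probe set, by the mean of all 24 arrays. Columns were matched to samples by label, and the 12 growth-factor arrays were fitted with limma 3.58.1 (R 4.3.3) with the 6 treatment-by-experiment pairs as a block (5 residual degrees of freedom; 3 for single growth factors and the F test, 4 between experiments, 6 against starved cells, where duplicate arrays were averaged).

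The labels give each pair the same experiment number, and deviations of the paired arrays of experiments 1 and 2 correlated across genes at 0.717 (EGF), 0.792 (IGF) and 0.665 (TGF beta). The fit was tested on simulated data. The members and gene lists were chosen with earlier results of these data known. Named genes are the 3 markers, the 14 largest rises and falls with 1 sign in all 6 pairs, the 5 lowest p-values of the F test and those of the test between experiments, 2 rises and 2 falls per single factor, and leading list members. Alternatives were no pair block, other scaling, array weights, another prior, the median of probe sets, leaving out the dimmest 40% of genes, all 24 arrays, each experiment alone and leaving out each pair. Promoters come from RefSeq (GRCh38.p14), 9593 of 11940 genes matched by symbol, with the first entry taken where a gene had several. Serum arrays entered no comparison except the fit to all 24 arrays. They also counted in the choice of probe set, in the quantile normalization and in finding the dimmest genes.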

Additional observations from a re-analysis of the deposited data

Results flagged for a closer look

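Among the 28 genes with the largest differences, 3 had 1 pair far from the other 5, where chance gives about 1 in 20. NMU differed by 1.85 in the TGF beta pair of experiment 1, against 1.17 to 1.42 in the others. CPT1A differed by 0.916 in the same pair, against 1.37 to 1.62. GPR4 differed by 1.68 in the EGF pair of experiment 1, against 1.00 to 1.21.

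The line difference of 5 genes changed between the experiments by limma's test of the difference itself, experiment 2 minus experiment 1: CENPE by -1.22, ASPM by -1.07, CDC25C by -1.04, MKI67 by -1.02 and NDC80 by -0.969. The labels do not settle whether the experiments differed in exposure time, and the experiment and the exposure cannot be told apart here.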

How the results depend on the processing

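The count of genes differing between the lines with growth factors (2378) was 703 without the pair block, 1539 with all 24 arrays, 1175 in experiment 1 alone and 1786 in experiment 2 alone, and 58 with a 2-fold minimum; leaving out 1 pair gave 1884 to 2151. The count with EGF (211) was 11 without the block, 322 with median centring, 731 with a trended robust prior and 380 without the dimmest 40% of genes, 53 at 2-fold and 3 to 153 without 1 pair. With IGF (241) it was 12 without the block, 433 with array weights, 738 with the trended prior and 438 without the dimmest genes, 56 at 2-fold and 7 to 176 without 1 pair. With TGF beta (266) it was 10 without the block, 444 with centring, 119 with array weights, 829 with the trended prior and 561 without the dimmest genes, 53 at 2-fold and 14 to 119 without 1 pair. Between experiments (225) it was 605 with the trended prior, 431 without the dimmest genes, 20 at 2-fold and 76 to 165 without 1 pair; without the block it was 157. The F test stayed at 0 in every fit run, and the difference from starved cells at 0 except for 1 gene with all 24 arrays and with each starved array as its own value. For 33 results, 513 values under the alternatives were compared: the 28 genes of largest difference and the 5 of lowest p between experiments. Of these values, 504 kept direction and call, none reversed and 9 lost the call. CCND2, CPT1A and CDC25C lost it with the median of probe sets. NMNAT2, CLIC3, SEL1L3, TGFB2, BAMBI and CCL3 lost it without the block. The other named genes were not in this count, and calls of list members were often lost. Without the block the 6 ERK feedback falls became 0 and the 21 ATF4 falls became 5. The causes were not tested. Signals near the dim end, such as RAB25 and EGR1 in pcDNA cells, may understate fold differences.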
